A study of Homo sapiens with 18 samples.

Results

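Stable loss hybrid regions are places in the genome of HCT116 cells where DNA-RNA hybrids were called in both replicates of untreated cells (NT) and in neither replicate after 5 or 60 min of camptothecin (CPT). They were selected on the presence of DRIP peaks, that is, on measured values. For each treatment, peaks that shared at least 1 bp with a peak of the other replicate were joined, and joined intervals of the 3 treatments that touched were united into regions. A region was a stable loss if it held a peak of both NT lists and no peak of the 4 CPT lists. Of 28518 regions, 2244 met this rule (7.87%). Of the 12135 regions with a peak in both NT lists, hereafter NT regions, they made up 18.5%. This value is the background for the shares of lost NT regions given below.

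HCT116 is an established human colorectal carcinoma line, and DRIP-seq is the sequencing of restriction-digested genomic DNA pulled down by an antibody that binds DNA-RNA hybrids. The 18 samples were 6 DRIP libraries, 6 DRIP libraries from DNA digested with RNase H before the pull-down, and 6 inputs, from 2 biological replicates of NT cells, cells given 10 μM CPT for 5 min and cells given 10 μM CPT for 60 min. All groups came from the same cell line without genetic change, each replicate was a pool of parallel pull-downs, and cells were lysed only after a harvest that followed the end of the treatment, so the maps do not show the moment of drug removal. Peak lists of the 12 pulled-down libraries were analysed; they held 30314 to 72879 peaks in DRIP libraries and 473 to 67188 after RNase H, and in each treatment the list of replicate 2 was the longer one. The lists hold no read counts, so depth per region is unknown, and a missing peak is a call below the threshold of that library, not the absence of hybrids. Fold enrichment over input ranks peaks within 1 list only and was turned into a percentile of its list.

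R loops form when a nascent transcript pairs with its template and leaves the other DNA strand unpaired. They are found at promoters, along transcribed genes and past their ends, where they are favoured by runs of G in the RNA-like strand and are removed by RNase H enzymes and helicases. CPT traps topoisomerase I on DNA as a cleavage complex, which keeps the enzyme from relaxing supercoils ahead of and behind RNA polymerase and blocks elongating polymerases.

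The DNA at the NT summits of the strongest losses is shown first because the base composition of a hybrid site is what the antibody and the transcript both meet. The regions were ranked by the lower of their NT percentiles, and 4 of the 10 highest are shown, each by a window of 150 bases around the NT summit that lay outside any annotated UTR. The windows, read from GRCh37 and written 5′ to 3′, lay in introns; the strand is that of the named gene, or the plus strand where genes on both strands overlap. In RRP12 and TAGLN the summit lay at the edge of the region, and 73 and 74 of the 150 bases fall outside it. Capitals mark runs of at least 3 G.
ITGB4/GALK1, chr17:73750983-73751132, plus strand: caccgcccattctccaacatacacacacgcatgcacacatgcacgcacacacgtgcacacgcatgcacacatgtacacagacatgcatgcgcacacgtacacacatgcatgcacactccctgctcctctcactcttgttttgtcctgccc
MLLT6, chr17:36871575-36871724, plus strand: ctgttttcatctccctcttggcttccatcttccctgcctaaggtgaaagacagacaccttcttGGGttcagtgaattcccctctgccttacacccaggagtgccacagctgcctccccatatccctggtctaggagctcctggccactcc
RRP12, chr10:99124684-99124833, minus strand: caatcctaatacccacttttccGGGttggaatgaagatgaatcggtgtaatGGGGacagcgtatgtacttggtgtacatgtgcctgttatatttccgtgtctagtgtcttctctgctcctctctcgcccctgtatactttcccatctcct
TAGLN, chr11:117071358-117071507, plus strand: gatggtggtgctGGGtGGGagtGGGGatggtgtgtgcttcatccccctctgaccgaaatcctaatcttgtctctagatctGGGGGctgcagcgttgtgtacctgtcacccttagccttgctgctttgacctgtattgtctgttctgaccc
These windows differed widely in G runs. The TAGLN window held 4, the last of them past the region edge, that of RRP12 held 2, that of MLLT6 held 1, and the ITGB4/GALK1 window, rich in CA repeats and with a GC content of 54.7%, held none.

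The same measure over all members placed them near other NT regions. In the 1516 members inside exactly 1 protein-coding gene, the summit window held 2.97 ± 2.15 G runs on the gene-sense strand (SD over regions), against 2.96 ± 2.22 in the 8190 NT regions inside 1 gene, and 43.1% of members had more G than C runs, against 43.7% of NT regions. A G-quadruplex motif (4 runs of GGG or longer, with 1 to 7 bases between runs, on either strand) lay in the 500 bp at the midpoint of 452 members, or 20.1% (95% Wilson interval 18.5 to 21.8%). The share was 21.3% in NT regions, 21.5% in the 3719 regions with a peak in all 6 DRIP lists (no change), 7.57% in the 1519 regions absent from NT and present in all CPT lists (stable gain), and 14.2% in all regions. Median GC content was 54.2% in stable losses, 53.6% in NT regions, 52.6% in no change regions and 44.2% in stable gains. In bases, stable losses were thus close to the other hybrids of untreated cells and were richer in G and C than the regions that appeared after CPT. These are descriptions over regions, which are not replicates, and no test was made on them.

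Members were narrow and mostly of moderate height in NT. Their width ran from 319 to 10606 bp with a median of 867 bp, and 2088 of them (93.0%) consisted of 1 peak in each NT list. In NT replicate 1 their fold enrichment over input was 2.06 at the lowest, 3.56 at the median and 11.3 at the highest. In NT replicate 2 the corresponding values were 2.15, 3.90 and 12.9. The median member stood at percentile 39.3 of NT list 1 and 58.6 of NT list 2, so it was an ordinary peak of both lists. Both NT percentiles were at least 50 in 558 members (24.9%) and at least 75 in 124 (5.53%).

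The number of CPT lists with a peak followed the height and width of NT regions. Regions with a CPT peak in 1 of 4 lists, just outside the rule, numbered 2001, with a median width of 1083 bp and median NT percentiles of 46.6 and 68.7. Regions with peaks in all 4 CPT lists were 5787 bp wide at the median, with percentiles of 85.8 and 93.1. The CPT peak that kept a region just outside the rule was in a replicate 2 list in most cases, 851 times at 5 min and 802 times at 60 min, against 229 and 119 times in the shorter replicate 1 lists. Presence in the CPT lists chose the members, so these values describe the threshold and carry no test. The count of members rests on the use of both replicates: with 1 replicate alone, 16459 (without replicate 2) or 26454 (without replicate 1) regions met the rule.

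Stable losses were spread over 23 chromosomes, in numbers that followed those of NT regions. Chromosome 19 held the most, 282 members or 17.6% of its NT regions, followed by chromosome 1 with 217 (19.0%) and chromosome 17 with 204 (19.5%). The share ran from 13.5% on chromosome 5 to 26.6% on chromosome 18, which held only 79 NT regions. Midpoints were annotated by GENCODE release 44 on GRCh37. In introns lay 1018 members, and 460 lay at gene ends (3′UTR or up to 10 kb downstream). Promoters (5′UTR or up to 10 kb upstream) held 335, other exons 100, and 331 lay outside protein-coding genes and their flanks. The share at gene ends was 20.5% in members and 20.3% in no change regions, so it did not set members apart. Promoters held 14.9% of members and 31.5% of no change regions, and introns 45.4% and 33.6%.

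Within genes, stable losses lay toward the 3′ end of long genes. The median member sat 69.4% of the way along its gene, 38.8 kb from the gene start, in a gene of 67.2 kb. With each gene cut into 4 equal parts from start to end, 12.1% of members fell in part 1, 19.3% in part 2, 26.5% in part 3 and 42.2% in part 4. No change regions were placed the other way, with a median of 32.8% and 43.3% of them in part 1. Stable gains were at the start, with a median of 11.8% and 68.5% in part 1. Late losses, absent only at 60 min, resembled stable losses with a median of 67.1% (147 regions in 1 gene), whereas transient losses, absent only at 5 min, were spread along the gene with a median of 48.1% (321 regions).

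**Figure D1:**
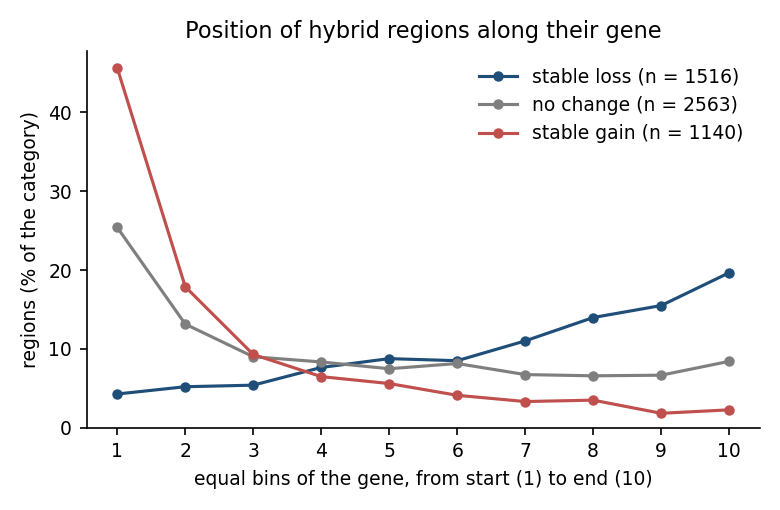
Share of regions (%, y axis) in 10 equal bins of the gene from its start to its end (x axis) for stable loss, no change and stable gain regions whose midpoint lies in exactly 1 protein-coding gene. Stable losses rise from 4.29% in bin 1 to 19.7% in bin 10, while stable gains fall from 45.6% to 2.28%.

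Since NT regions of all kinds are not evenly placed along genes, the share of NT regions that were lost was computed for each of the 4 parts. It was 7.95% in part 1 (183 of 2303 NT regions; interval 6.91 to 9.12%), 18.02% in part 2 (292 of 1620), 20.8% in part 3 (401 of 1928) and 27.4% in part 4 (640 of 2339; interval 25.6 to 29.2%). The intervals cover counting error only. Distance from the gene start gave a like pattern, with losses making up 4.78% of NT regions within 2 kb, 6.90% between 2 and 10 kb, 22.5% between 10 and 50 kb, 32.4% between 50 and 100 kb and 30.4% beyond.

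The rise along the gene was seen in genes over 20 kb, with little of it in shorter ones. In genes up to 20 kb, the share of NT regions lost was 5.94% in part 1 and 8.43% in part 4, with intervals that overlapped. In genes of 20 to 100 kb it rose from 6.27% to 30.3%, and in genes over 100 kb from 13.4% to 36.7%. Short genes hold few positions far from the gene start. Gene length and distance from the start were not split against each other, so they cannot be told apart here. The rise was present within each class of NT height and of NT width. Among NT regions whose lower NT percentile was under 25, the share rose from 16.3% in part 1 to 44.6% in part 4, and among those above 75 from 0.964% (7 of 726) to 6.09% (45 of 739). Among regions up to 1 kb wide it rose from 32.1% to 55.8%, and among those of 2 to 5 kb from 1.69% to 17.4%.

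**Figure D2:**
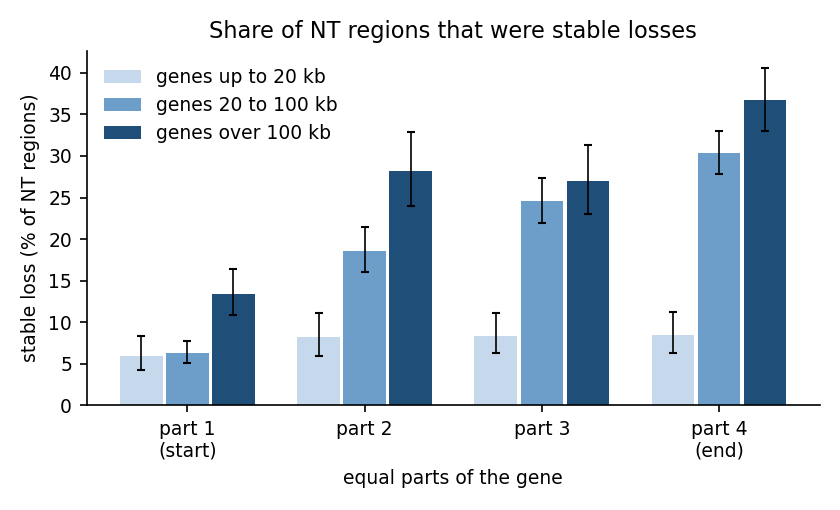
Stable losses as a percentage of NT regions (y axis) by equal part of the gene, from start to end (x axis), in genes of up to 20 kb, 20 to 100 kb and over 100 kb. Bars are shares and error bars are 95% Wilson intervals; in genes over 100 kb part 4 reaches 36.7%, in genes up to 20 kb it stays at 8.43%.

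The DRIP lists that the rule used were also read 1 replicate at a time. Each NT peak was compared with the CPT list of the same replicate number. At 5 min, the share of NT peaks that met no CPT peak went from 63.9% in part 1 of the gene to 78.9% in part 4 in replicate 1, and from 51.4% to 69.9% in replicate 2. At 60 min it went from 44.8% to 73.0% in replicate 1 and from 34.0% to 68.9% in replicate 2. The difference between parts 4 and 1 was thus 14.98 and 18.5 percentage points at 5 min and 28.2 and 34.9 at 60 min. It had the same sign in all 4 comparisons, and it was larger at 60 min in both replicates. The pairs of a replicate share their NT list, and no test was made with 2 replicates. Since these lists chose the members, the values describe the same calls and are no separate support for the rise. They were not split by the height or width of the NT peaks.

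In most genes that held both a loss and a gain or no change region, the loss lay downstream. A total of 1248 genes held the midpoint of a stable loss, of which 322 held 2 or more and 120 held 3 or more. In 107 genes a stable gain was present as well (8.57% of genes with a loss, 8.50% of genes with a gain), and in 88 of them the loss lay downstream of the gain, with median positions of 71.9% for losses and 10.6% for gains. In the 303 genes with a loss and a late gain, present only at 60 min, the loss was downstream in 267. With a no change region the loss was downstream in 267 of 351 genes, and with a transient gain, present only at 5 min, in 52 of 86. These counts are a description with no test. The share that the positions of each kind over all genes would give was not computed. The counts therefore do not show an order within genes beyond those positions.

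RPTOR, which encodes the raptor subunit of the growth-regulating kinase complex mTORC1, held the most losses. Of its 16 NT regions in 421.6 kb on chromosome 17, 12 were stable losses, 379 to 3179 bp wide and lying from 49.2 to 404.1 kb from the start. At the start lay 2 stable gains, between -0.305 and 8.80 kb from it, and at the far end all 6 lists held a peak near 419.6 kb. Between the first and the last loss, the NT lists of replicates 1 and 2 held 19 and 51 peaks. The 5 min lists held 9 and 18 there, and the 60 min lists 3 each. RPTOR was named for its losses, which by the rule hold NT peaks and no CPT peaks. Part of the difference between these counts was therefore set by the selection. The strongest of its losses lay at chr17:78832334-78833157 in an intron, with a fold enrichment of 4.38 in NT replicate 1 and 4.76 in NT replicate 2, and the nearest CPT peak was 1115 bp away. An RNase H peak of NT replicate 2 met this region, so a peak was still called there after digestion.

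VAV2, which encodes a guanine nucleotide exchange factor, held 8 losses among 22 NT regions, between 36.5 and 188.4 kb from its start. MAD1L1, a component of the spindle assembly checkpoint, held 7 among 24 NT regions; the same 7 lie in an overlapping annotated gene named by its identifier only, ENSG00000286192, so they count under both. DNM2, which encodes the membrane-fission GTPase dynamin 2, held 6 among 13 NT regions. Losses in MAD1L1 lay at 4.03 to 66.8% of its length, whereas in RPTOR and DNM2 the farthest losses lay at 95.9% and 91.3%.

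Among genes with both a stable gain and a stable loss in the gene or within 10 kb, the 5 with the strongest losses had the gain on the 5′ side of the loss in each case. EIPR1, whose product takes part in endosomal recycling and dense-core vesicle formation, is 188.9 kb long and had 5 losses, centred 63.5, 81.7, 137.7, 187.8 and 193.1 kb from its start, the last one past the gene end. Its gain, chr2:3379591-3384508, was centred at -0.449 kb, just upstream of the start. The loss past the gene end, chr2:3187415-3189563, stood at percentiles 92.7 and 94.4 of the NT lists, while the gain stood at 8.57 and 47.9 at 5 min and 14.99 and 89.7 at 60 min in replicates 1 and 2. The gain was thus a weak peak in replicate 1 and, at 60 min, a strong one in replicate 2.

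In UBE3C, a ubiquitin ligase gene of 130.4 kb, the gain was centred 7.98 kb and the loss 100.9 kb from the start. The UBE3C loss, chr7:157031726-157033358, had fold enrichments of 7.63 and 5.42 in the NT replicates, and a CPT peak lay 611 bp from it. In SARS2, the mitochondrial seryl-tRNA synthetase gene, the gain was at 2.88 kb and the loss at 11.8 kb of 15.5 kb. In RPN1, a subunit gene of the oligosaccharyltransferase, the gain was at 35.4 kb and the loss at 68.1 kb, past the gene end. The loss paired with NAT10, an RNA acetyltransferase gene, was centred 47.4 kb from the NAT10 start, past its end and inside the converging gene ABTB2. Peaks carry no strand, so a hybrid between converging genes cannot be assigned to either transcript.

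**Figure D3:**
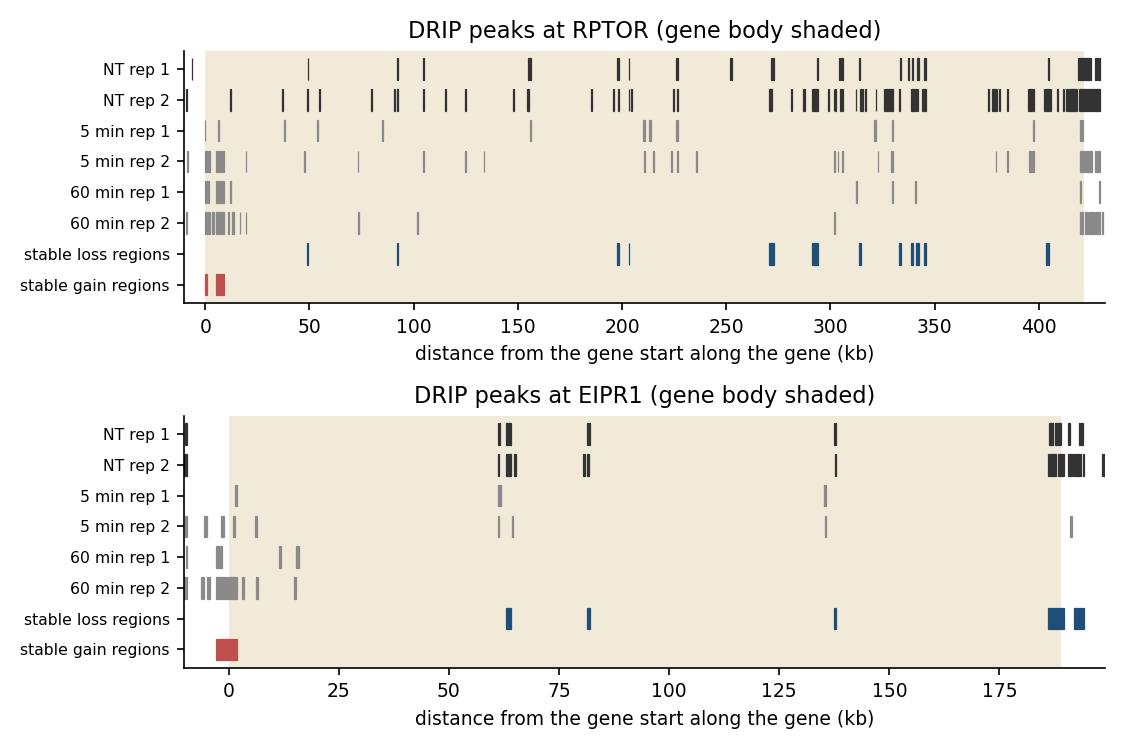
Peaks of the 6 DRIP libraries (rows) along RPTOR and EIPR1, with the stable loss and stable gain regions below and distance from the gene start in kb on the x axis. Losses (12 in RPTOR, 5 at EIPR1) lie along the gene bodies and ends, the gains at the starts, and in RPTOR the 60 min lists hold 3 peaks each between the first and the last loss. By the rule, losses hold NT peaks and no CPT peaks.

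The loss with the highest lower NT percentile lay where ITGB4, the integrin subunit of hemidesmosomes, overlaps GALK1, the galactokinase gene of the other strand. This region, chr17:73745717-73756102, was 10386 bp wide, with fold enrichments of 8.58 and 9.80 in NT replicates 1 and 2, at percentiles 96.9 and 97.6. Its window is the first of the sequences shown. No RNase H list held a peak in it, and the nearest CPT peak lay 1535 bp away. Losses of this height were few, with 15 members at or above percentile 90 of both NT lists.

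The other 9 of the 10 strongest losses had fold enrichments between 6.63 and 12.9 in both NT lists. The second, chr8:145483377-145483933, lay outside genes, 2121 bp from the nearest one, the ribosome biogenesis gene BOP1, with fold enrichments of 7.99 and 12.9. SYMPK, the scaffold of the RNA 3′ end processing machinery, held a loss at 78.4% of its length with fold enrichments of 7.37 and 7.31. RRP12, a ribosomal subunit export factor gene, held one at 85.1%, and ABTB2 one at 99.0%. The losses at BSCL2, the seipin gene, and TAGLN, which encodes the actin-binding protein transgelin, were annotated as promoter regions, as was the one at GCHFR and DNAJC17. MLLT6, a gene known from fusions with KMT2A in leukaemia, held one at 44.8% with percentiles of 94.98 and 95.3, and LITAFD one at 93.0%. Of these 10 regions, the MLLT6 region alone was met by an RNase H peak, in 1 of 6 lists.

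Most losses had a peak of at least 1 of the 4 CPT lists within 5 kb, counted whether or not such a peak was also present in NT. No single list held one that near for most members, with shares of 19.2 to 45.6%. The nearest peak of any CPT list was 2714 bp away at the median, and 1485 members (66.2%) had one within 5 kb. This share was 41.8% for the regions that met the rule without replicate 2 and 86.1% for those under a looser rule of absence, no CPT time with a peak in both replicates. List by list, the median distance was 16016 and 16947 bp for replicate 1 at 5 and 60 min, and 5922 and 7350 bp for replicate 2. Only 36 members were more than 50 kb from any CPT peak. Regions with CPT peaks of both replicates were farther, 16715 bp at the median, with 21.4% of members within 5 kb. The CPT lists held 33852 to 72879 peaks. Such distances were not computed for other places in the genome, so whether these shares are particular to members is not known.

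**Figure D4:**
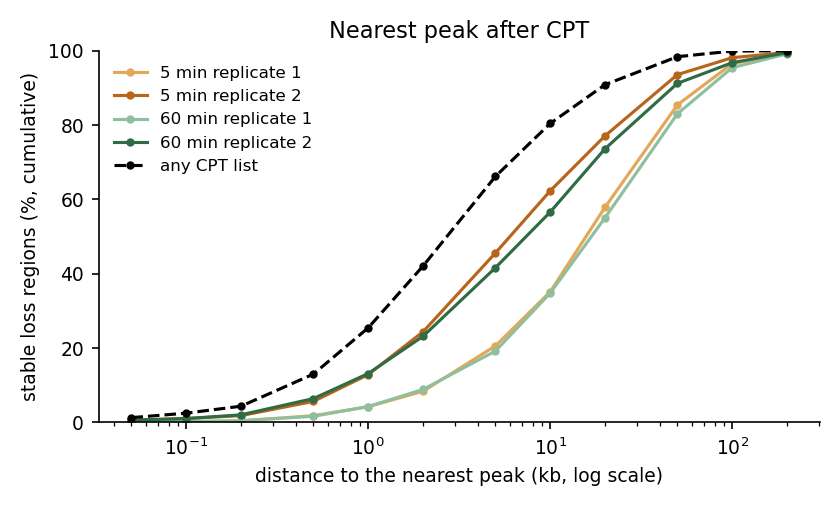
Cumulative percentage of stable loss regions (y axis) by distance to the nearest peak of each CPT list and of any CPT list (x axis, kb, log scale). Over all 4 CPT lists 66.2% of members have a peak within 5 kb, with single lists 19.2 to 45.6%.

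The DNA was cut by 5 restriction enzymes before the pull-down, so signal is shared along a fragment. Region edges often fell on the cut sites: 1364 members (60.8%) had an edge within 10 bp of one, against 66.7% of NT regions and 73.2% of no change regions. In 659 members (29.4%) the summit of NT replicate 1, and in 591 (26.3%) that of NT replicate 2, was within 75 bp of the region edge. The fragment under a member was 3838 bp long at the median, against 3721 bp for NT regions. On 940 member fragments (41.9%) a CPT peak lay elsewhere on the same fragment, compared with 97.0% for regions with 1 CPT list and 99.7% for no change regions, which hold CPT peaks themselves. When these 940 were left out, 45.1% of the remaining members in 1 gene were in part 4 of it, and without the members that had a CPT peak within 5 kb the value was 40.9%.

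The RNase H lists did not enter the rule, but they came from the same digested DNA as the DRIP lists, so they are separate libraries and not separate samples. Peaks of the NT RNase H list of replicate 1 met 1 of 2244 members (0.0446%), those of the 5 min list 17 (0.758%) and those of the 60 min list 13 (0.579%). The lists of replicate 2 met 261 members for NT (11.6%; interval 10.4 to 13.0%), 293 for 5 min (13.1%) and 247 for 60 min (11.01%). Over all regions the shares in replicate 1 were 0.386% for NT, 2.98% for 5 min and 2.78% for 60 min. In replicate 2 they were 13.15%, 43.3% and 65.3%. All regions include those called from CPT DRIP peaks of the same DNA. Within members, the spread between replicates was far larger than that between treatments. No RNase H list met 1653 of the members (73.7%).

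The difference between CPT and NT was within the spread of the libraries. The mean was 5.84 ± 8.19% in NT (SD, n = 2) and 6.35 ± 6.61% after CPT (n = 4), a difference of 0.512 percentage points (two-sided exact permutation test, p = 0.80; the smallest p that 2 of 6 libraries allow is 0.0667). Members were chosen for having no CPT peak in DRIP libraries of the same DNA, so their CPT share is not free of the rule.

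The other kinds of NT region were set beside members in the same way. In the NT libraries of replicates 1 and 2, the share of members met by an RNase H peak differed from that of no change regions by -1.54 and -24.8 percentage points. The differences to transient losses there were -0.185 and -2.13 points, and those to late losses 0.0446 and -14.2 points. In the 4 CPT libraries, the presence of DRIP peaks in the same DNA had chosen the members and the regions beside them, so the selection bears on the sign of those differences, and the tests over 6 libraries are a description and support nothing about members. Over all 6, the difference to no change regions was -34.2 ± 36.1 percentage points (SD over 6 libraries) and was negative in 6 of 6 libraries (two-sided exact sign-flip permutation test, p = 0.0312, Benjamini-Hochberg adjusted over 3 comparisons p = 0.0469, where 0.0312 is the smallest p that 6 libraries allow). The difference to transient losses was -14.4 ± 27.1 points, also negative in 6 of 6 (exact permutation test, adjusted p = 0.0469), with -68.6 points in the 60 min library of replicate 2. For late losses the difference was -12.2 ± 14.2 points, negative in 5 of 6 (exact permutation test, adjusted p = 0.0625). No change regions were wider, and when only the 500 bp at the midpoint of each region were compared, the differences to no change and to transient losses were -21.2 and -9.25 points and neither passed the threshold (exact permutation test, adjusted p = 0.0938 and 0.312). Without replicate 2 the difference to no change regions was -7.01 points and without replicate 1 it was -61.3 points. The corresponding differences to transient losses were -0.533 and -28.2 points, and 3 libraries cannot pass the threshold. When all 6 differences share a sign, this test gives its smallest p whatever their size, so these p-values do not measure the spread. The test also treats the 6 libraries as separate units, though those of 1 replicate number differ strongly from the other.

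**Figure D5:**
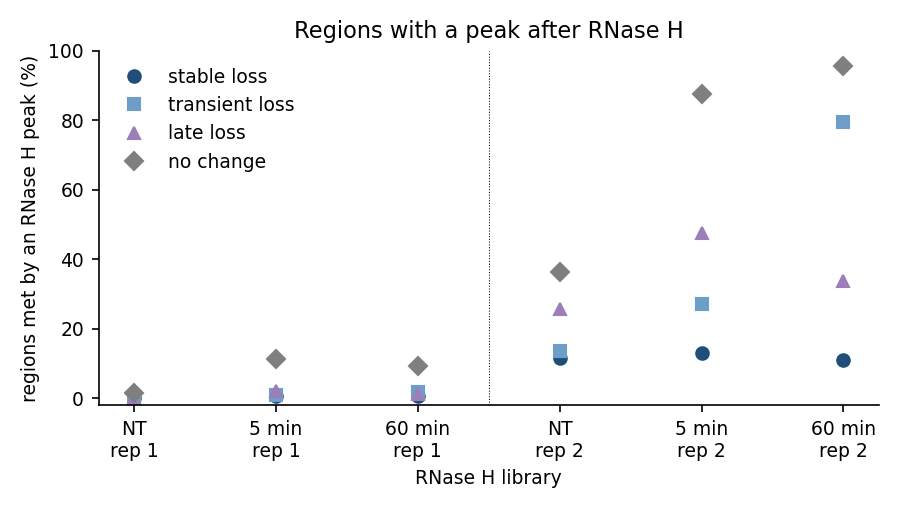
Percentage of regions met by a peak of each RNase H library (y axis) for stable loss, transient loss, late loss and no change regions, with replicate 1 libraries on the left and replicate 2 on the right. Stable losses stay at or below 13.1% in all 6 libraries, while no change regions, chosen for peaks in the CPT DRIP lists of the same DNA, reach 95.5% in the 60 min library of replicate 2.

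Gene lists of 5 kinds were read against the background of 24.2%, the share of the 7768 genes with an NT region in the gene or within 10 kb that had a stable loss there (1876 genes). Of 17 epithelial adhesion and keratin genes with an NT region, 7 had a loss (41.2%). They were CTNNA1, ITGB4, ITGB5, LAMA5, PLEC, CLDN3 and CLDN4, which encode a catenin, 2 integrin subunits, a laminin chain, the cytolinker plectin and 2 claudins of tight junctions. The ITGB5 loss stood at 73.8% of the gene, with fold enrichments of 8.27 and 4.41 in the NT replicates, and the LAMA5 loss at 62.2%, with 4.37 and 6.90. RNase H peaks of replicate 2 met the ITGB5 region in NT and at 5 min. The PLEC loss lay nearer the gene start, at 29.9% of the gene. The region counted for CTNNA1 lay beyond its end, nearer to SIL1, with fold enrichments of 4.14 and 5.10.

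The other lists had shares below the background, with 14 to 19 genes each. Of WNT and TGF-beta pathway genes 3 of 17 had a loss (17.6%). These were SMAD3, a signal transducer of TGF-beta, LRP5, a WNT co-receptor, and the transcription factor gene TCF7, with losses at 83.0%, 83.0% and 82.6% of the gene. Of DNA damage response and repair genes 3 of 14 had one (21.4%), namely XRCC1, ERCC1 and FANCA. The region counted for ERCC1 lay nearer to RTN2. The XRCC1 loss, at 97.6% of this single-strand break repair gene, had fold enrichments of 3.53 and 5.88. The FANCA loss stood at 54.3% of its gene. Of genes for RNase H, R-loop helicases and RNA 3′ end processing 3 of 16 had one (18.8%): SYMPK, CLP1 and CPSF2, all of the 3′ end processing group, though the region counted for CLP1 lay outside the gene, nearest to YPEL4. Of glycolysis and lipid metabolism genes 3 of 19 had one (15.8%), PFKP, GPI and TPI1. The GPI region lay inside the neighbouring gene GARRE1. The TPI1 region, inside the neighbouring gene USP5, was 13 bp from a CPT peak. These counts are small and describe the lists without a test.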

How the data were processed

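The data were the peak lists of 6 DRIP and 6 RNase H-digested DRIP libraries. Inputs served the authors as controls for calling. Per the methods, reads were trimmed (Cutadapt), mapped by BWA to hg19 and to yeast as spike-in, cleared of blacklisted regions and of duplicates, and passed to MACS2 one library at a time, so biological replicates were not pooled. The peak calling threshold is not given in the sources used here, and spike-in scaling does not enter the peak lists. The deposited fold enrichment is a ratio, summit over input. The deposited −log10 q and −log10 p values belong to 1 library. The deposited score was not used.

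Regions were built as described above. A region was called absent only with no overlapping peak in a list; the other categories were defined from the same lists. Peaks fit the chromosome lengths of GRCh37, which is hg19 for these chromosomes. Positions came from 20175 protein-coding genes of GENCODE release 44 lifted to GRCh37, by the midpoint of a region, with promoter over gene end over exon over intron, and position along a gene was taken for midpoints in exactly 1 gene. The members and the gene lists were chosen with earlier results of these data known. The rule for named regions takes the 10 members with the highest lower NT percentile, the 5 genes with most members, the 5 genes with a member and a stable gain within 10 kb and the strongest member, and the genes of 5 lists with a member (up to 6 a list; CLDN3, the 7th, is named with its list). The sequence rule asked for regions outside UTRs and was applied to the printed window; windows of regions on chromosome 8 and of 2 other regions are not reported here. Genes known by an identifier only were left out of the pairs of gain and loss. Intervals are 95% Wilson intervals. RNase H shares were compared over libraries with two-sided exact permutation tests and Benjamini-Hochberg adjustment over 3 comparisons.

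Alternatives were peaks with a −log10 q of 3 or more, lists cut to 30314 peaks, a 50% overlap, peaks up to 1 kb apart merged, a looser definition of absence, removal of regions with an NT RNase H peak, 500 bp at the midpoint, each replicate left out, the replicate as a block and, chosen after seeing the data, removal of regions near CPT peaks. Region building and the tests were checked on simulated data. Software was Python 3.11.15, pysam 0.24.0, pandas 2.3.3, SciPy 1.17.1, NumPy 2.4.6 and Matplotlib 3.10.9.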

Additional observations from a re-analysis of the deposited data

How the results depend on the processing

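The number of stable losses, 2244, was 5478 when absence meant no CPT time with a peak in both replicates, 1483 when peaks up to 1 kb apart were merged, 1304 without regions whose restriction fragment met a CPT peak, 759 without regions that had a CPT peak within 5 kb, and 16459 to 26454 with 1 replicate alone, where presence and absence rest on fewer lists. It stayed within 1.5 times 2244 with a −log10 q of at least 3 (1513), with lists of equal length (2652), with a 50% overlap (1956) and without regions met by an NT RNase H peak (1983). The share in part 4 of the gene, 42.2%, was 37.7% with the looser absence and 39.1% with the merged peaks. It was 45.1% without the shared fragments and 33.1 to 33.4% with 1 replicate alone. An even placement would give 25%, but NT regions were not evenly placed. In the main setting, 2339 of the 8190 NT regions inside 1 gene lay in part 4. The share with a CPT peak within 5 kb, 66.2%, was 43.1% without the shared fragments, 52.3% with lists of equal length, 86.1% with the looser absence and 41.8 to 49.8% with 1 replicate alone.

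The RNase H difference to transient losses was -9.25 points at the 500 bp midpoint and -28.2 to -0.533 points with 1 replicate alone, that to no change regions -21.2 points and -61.3 to -7.01 points. None of these passed the threshold, and with 3 libraries the smallest p is 0.250. None of these differences changed sign. Whether replicate numbers pair the libraries across treatments is not stated. Their deviations correlated at 0.204 (NT and 5 min), 0.0835 (NT and 60 min) and 0.304 (5 and 60 min), which does not settle it. With the replicate block, the exact permutation test of CPT against NT in members, a difference of 0.512 points, gave p = 0.667. The smallest p that this block allows is 0.111. The cause of these shifts was not tested. Without read counts, what depth hides cannot be set, and the shorter lists of replicate 1 limit which NT regions could be called.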
